A study of Sus scrofa with 22 samples.

Results

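The glandular epithelium (GE) and the luminal epithelium (LE) of the endometrium were compared within the 4 pregnant gilts on Day 12. Both epithelia were cut from frozen sections by laser capture microdissection (LCM), and 1 RNA-seq library of each was available from every gilt, giving 8 of the 22 libraries of the study. The comparison covers the 10851 genes that the GE and LE tables share, of 12401 genes listed for at least 1 cell type. The 825 genes listed for GE but not LE and the 564 listed for LE but not GE are described apart. Of these, 481 and 247 were also listed for stroma. For such genes, alone or only refers to the epithelia and not to stroma. All gilts were prepuberal crosses of German Landrace and Piétrain in which ovulation had been synchronised with PMSG and hCG. The pregnant gilts (numbers 01, 03, 05 and 14) had been inseminated with semen, and the cyclic controls (numbers 02, 04, 06 and 13), used here in the last comparison, had received the supernatant of centrifuged semen. Stroma (S) of pregnant gilts 01, 05 and 14 is given as a reference level. Each library stands for the captured areas of 1 animal, and in such bulk samples fewer cells of a type and less RNA per cell cannot be told apart.

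The porcine endometrium is lined by a luminal epithelium, which faces the conceptus and is the first maternal tissue to meet its estrogens, interferons and interleukin 1 beta. Coiled glands run from this surface deep into the stroma, and their epithelium secretes histotroph, the mixture of proteins, ions and nutrients on which the conceptus feeds before and after attachment. The pig placenta is not invasive, so that both epithelia stay intact and exchange between mother and conceptus continues through them.

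The libraries held between 1994670 and 3535722 counts in GE and between 893912 (gilt 01) and 3499461 counts in LE, so that 3 counts corresponded to 0.848 to 3.36 CPM (counts scaled to library size). All 17 epithelial markers were listed in both epithelia, with summed levels of 3286 to 4312 CPM in GE and 3971 to 5432 CPM in LE, and they reached 1600 (gilt 01), 3285 (gilt 14) and 5026 CPM (gilt 05) in S. Fibroblast markers were also abundant (11809 to 35662 CPM in GE, 11036 to 27340 in LE and, in S, 9319 to 69171, with 17, 17 and 16 of 18 markers listed). Blood endothelium markers summed to 210 to 1382 CPM in GE and 897 to 2116 CPM in LE (12 of 13 listed in each), and leukocyte markers to 179 to 358 CPM in GE and 444 to 603 CPM in LE (7 of 19 listed in each, 5 of them in both, which summed to 127 to 313 and 431 to 575 CPM). Smooth muscle markers ranged from 635 to 2839 CPM in GE (9 of 10 listed) and from 541 to 5771 CPM in LE (6 listed). RNA of other cell types was thus present in the areas labelled as epithelium, and the sums of the 5 shared leukocyte markers did not overlap between GE and LE. The library labelled S of gilt 05 had an epithelial sum above every GE library and the lowest fibroblast sum of these libraries (9319 CPM), so that values in S are given with and without it. The S sums are scaled to library totals alone, unlike those of GE and LE. On library size alone the highest GE epithelial sum was 4310 CPM (gilt 05). The lowest fibroblast sum of GE and LE was then 10628 CPM (LE of gilt 03), so the order was the same.

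Of the 10851 genes, 1446 (13.3%) were higher in GE and 1488 (13.7%) were higher in LE (edgeR quasi-likelihood test with the gilt as block, adjusted p below 0.05). The numbers were alike but the sizes were not. A log2 difference (GE minus LE) of at least 3 was found for 121 genes higher in GE and for 13 genes higher in LE, and the extremes were 8.81 in GE and -3.57 in LE. In 1414 of the GE-higher and 1443 of the LE-higher genes all 4 gilts differed in the same direction. The 4 GE libraries lay entirely above the 4 LE libraries for 1233 genes (11.4%) and entirely below them for 1041 genes (9.59%). The mean stromal level in gilts 01, 05 and 14 exceeded that of GE for 384 of 1444 GE-higher genes (26.6%), but exceeded that of LE for 14 of 1460 LE-higher genes (0.959%); over all 10643 genes with a stromal value, stroma exceeded GE in 53.4% and LE in 51.9%. Without gilt 05 the numbers were 563 of the GE-higher genes (39%) and 45 of the LE-higher genes (3.08%), against 50.3% and 50.8% of all. At an adjusted p below 0.01, 693 genes (6.39%) were higher in GE and 781 (7.2%) in LE. Both counts were lower with any gilt left out, at 766 and 831 genes without gilt 05, 849 and 1003 without gilt 03, 1163 and 1268 without gilt 01, and 1346 and 1427 without gilt 14.

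**Figure D1:**
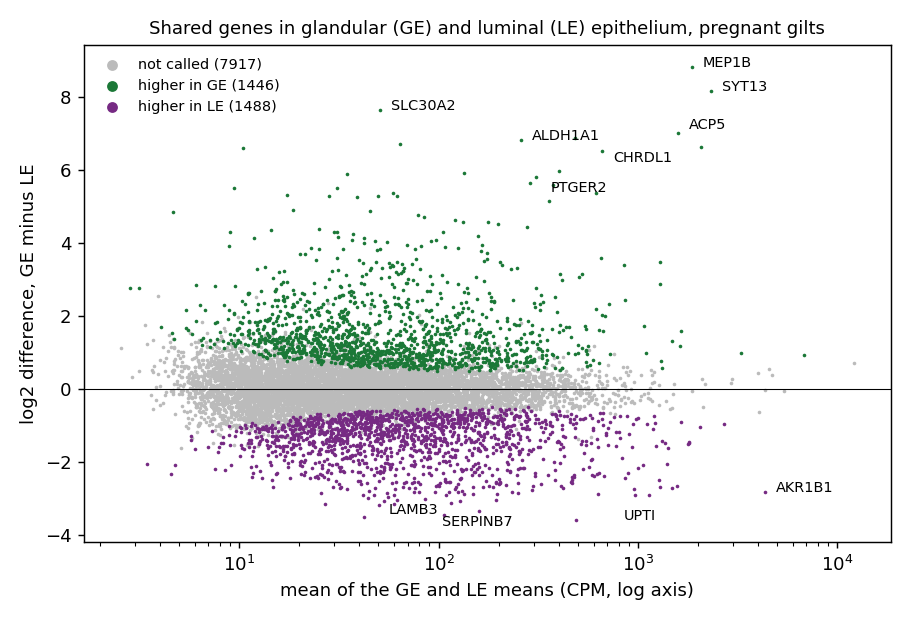
Mean of the GE and LE means (x axis, CPM on a log axis) against the log2 difference between GE and LE (y axis, positive values higher in GE) for the 10851 shared genes; each point is 1 gene and colours mark genes past the adjusted p of 0.05. The GE side reaches 8.81, whereas the LE side ends at -3.57.

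The genes that stood highest in GE encode a membrane protease, secreted glycoproteins and transporters. The largest difference belonged to MEP1B, the beta subunit of the membrane metalloprotease meprin (chr6:116015021-116049796 in Sscrofa11.1), with 2640.5, 5451, 5843 and 884 CPM in the GE and 1.14, 6.45, 3.49 and 21.6 CPM in the LE of gilts 01, 03, 05 and 14 (log2 difference 8.81 ± 0.99 (SE), adjusted p = 0.000515). The LE library of gilt 01 lay under the level of 3 counts. SYT13, a synaptotagmin of vesicle traffic (chr2:17120127-17166997), measured 3504, 6535, 6669.8 and 1834 CPM in the GE and 50.3, 2.48, 3.20 and 29.5 CPM in the LE (log2 difference 8.16 ± 1.09 (SE), adjusted p = 0.00106). ACP5, which encodes uteroferrin, the iron-carrying acid phosphatase of the porcine gland (chr2:70206159-70209855), had 3340.4, 4515, 3535 and 1168 CPM in the GE and 35.5, 67.5, 5.23 and 12.5 CPM in the LE (log2 difference 7.01 ± 0.58 (SE), adjusted p = 0.000277). For all 3 genes every GE library exceeded every LE library, and gilt 14 had the lowest GE level.

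UABP-2, uteroferrin-associated basic protein 2, a serpin that binds uteroferrin, was the most abundant of the genes that the LE table does not list, with 2553, 3795, 4489 and 979.7 CPM in GE of gilts 01, 03, 05 and 14. It followed the same order of gilts as MEP1B, lowest in gilt 14 and highest in gilt 05. Promoter windows of 250 bases upstream of the annotated start (Sscrofa11.1, sense strand of the gene) are shown for ACP5 and UABP-2 because their products travel together in histotroph, for MEP1B as the gene with the largest difference, and for SERPINB7 as an LE counterpart described further on; capitals mark a forkhead core (TGTTTAC or TGTTTGC) or an AP-1 site (TGAGTCA or TGACTCA), searched on both strands.
ACP5: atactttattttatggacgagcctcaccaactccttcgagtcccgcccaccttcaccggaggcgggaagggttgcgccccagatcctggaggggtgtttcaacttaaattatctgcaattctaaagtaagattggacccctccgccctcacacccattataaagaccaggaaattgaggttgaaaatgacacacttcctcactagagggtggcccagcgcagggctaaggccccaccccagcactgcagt
UABP-2: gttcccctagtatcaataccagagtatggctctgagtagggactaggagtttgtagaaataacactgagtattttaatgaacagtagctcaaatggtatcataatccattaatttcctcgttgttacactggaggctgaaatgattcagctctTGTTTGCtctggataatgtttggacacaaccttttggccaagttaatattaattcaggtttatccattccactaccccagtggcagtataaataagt
MEP1B: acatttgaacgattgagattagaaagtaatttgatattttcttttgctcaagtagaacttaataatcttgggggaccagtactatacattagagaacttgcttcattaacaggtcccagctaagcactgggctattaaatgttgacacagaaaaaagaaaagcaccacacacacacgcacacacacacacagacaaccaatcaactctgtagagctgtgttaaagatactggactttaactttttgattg
SERPINB7: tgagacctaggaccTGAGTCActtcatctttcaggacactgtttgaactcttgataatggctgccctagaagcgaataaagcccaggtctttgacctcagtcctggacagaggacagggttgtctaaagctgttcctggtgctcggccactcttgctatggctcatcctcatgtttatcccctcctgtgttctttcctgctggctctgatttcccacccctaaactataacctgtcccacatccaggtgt
The windows lie at chr2:70209856-70210105 on the minus strand (ACP5), chr7:115696633-115696882 on the minus strand (UABP-2), chr6:116014771-116015020 on the plus strand (MEP1B) and chr1:157999243-157999492 on the minus strand (SERPINB7). The UABP-2 window holds 1 forkhead core from base -97 to -91 and the SERPINB7 window 1 AP-1 site from base -236 to -230, whereas the windows of ACP5 and MEP1B hold none of these letters. A forkhead core occurred in 4.87% of the 10847 windows examined, in 5.88% of the GE-higher and 5.45% of the LE-higher genes. An AP-1 site occurred in 2.26% of all windows, in 1.87% of the GE-higher and 2.96% of the LE-higher genes. These matches describe letters and not bound sites.

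Among the further leading genes of GE were transporters, an enzyme and a receptor. SLC30A2, a zinc exporter of secretory cells, averaged 102 ± 72.7 CPM in GE and 0.297 ± 0.344 CPM in LE (log2 difference 7.63 ± 0.49 (SE), adjusted p = 0.000223). Its LE mean lay under the level of 3 counts of every LE library (0.857 to 3.36 CPM), so the size of the difference is uncertain. SLC24A4, an exchanger of sodium for calcium and potassium, measured 756, 1188, 1361 and 515 CPM in the GE and 6.86, 1.49, 2.91 and 38.9 CPM in the LE (log2 difference 6.87 ± 0.93 (SE), adjusted p = 0.00116), and the GE libraries did not overlap those of LE. ALDH1A1, which oxidises retinal to retinoic acid, averaged 515 ± 115 CPM in GE and 5.38 ± 8.18 CPM in LE, a log2 difference of 6.81 ± 0.73. PTGER2, the EP2 receptor of prostaglandin E2, had 454, 893, 820.3 and 259 CPM in the GE and 5.72, 9.43, 7.85 and 16.4 CPM in the LE (log2 difference 5.80 ± 0.49 (SE), adjusted p = 0.000277). The highest LE value of PTGER2 came from gilt 14.

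CHRDL1, an antagonist of bone morphogenetic proteins, averaged 1286 ± 427 CPM in GE and 34.5 ± 52.1 CPM in LE (log2 difference 6.52 ± 1.02), and in S its level was 568, 998 and 2191 CPM in gilts 01, 05 and 14, overlapping the GE libraries. ANPEP, an aminopeptidase of apical membranes, averaged 266 ± 168 CPM in GE and 3.61 ± 0.673 CPM in LE (log2 difference 5.91 ± 0.42). LOC100524382, annotated as an L-amino-acid oxidase-like gene, averaged 126 ± 35.4 CPM in GE and 1.14 ± 2.28 CPM in LE (log2 difference 6.70 ± 0.69). The uncharacterised LOC110260804 had 264 counts in the 4 GE and 2 counts in the 4 LE libraries, a ratio of 109 with a counting interval of 30.0 to 908 (95%). FAM84A, LOC100626264, LOC100514051 and the metallothionein-like LOC102166944 completed the 15 leading genes with log2 differences of 5.98 ± 0.56, 6.62 ± 0.96, 5.65 ± 0.68 and 5.89 ± 0.50. Among the 4 LE libraries, that of gilt 14 was the highest for 12 of these 15 genes.

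**Figure D2:**
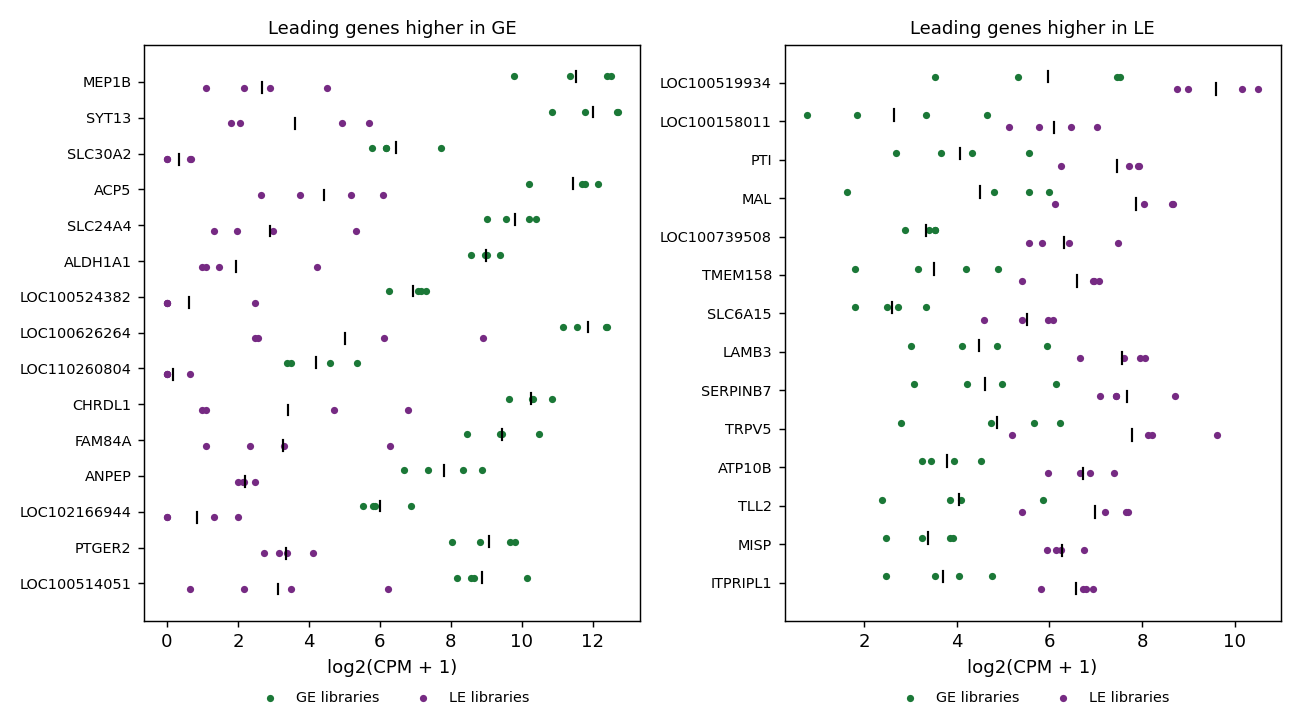
Level in each library (x axis, log2 of CPM + 1) of the 15 leading genes higher in GE (left) and of 14 leading genes higher in LE (right); each point is 1 of the 4 GE (green) or 4 LE (purple) libraries of the pregnant gilts and the black bar their mean. GE and LE points overlap for TRPV5 and TLL2 on the LE side and for no gene on the GE side.

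On the luminal side the leading genes include protease inhibitors, a basement membrane chain and a calcium channel, and the differences were smaller than those of the leading GE genes. LOC100519934, which has no described function, measured 184, 10.6, 175 and 39.1 CPM in the GE and 1135, 509, 1450.0 and 429.9 CPM in the LE of gilts 01, 03, 05 and 14 (log2 difference -3.57 ± 0.45 (SE), adjusted p = 0.000812). A cluster of trypsin inhibitor genes on chromosome 17 followed. PTI (chr17:47773060-47780746) had 46.5, 19.1, 5.46 and 11.6 CPM in the GE and 208, 240.1, 75.0 and 242 CPM in the LE (log2 difference -3.46 ± 0.35 (SE), adjusted p = 0.000386), and its neighbour LOC100158011 (chr17:47764433-47768446) had a log2 difference of -3.50 ± 0.50. UPTI, the uterine plasmin and trypsin inhibitor (chr17:47792171-47807770), averaged 229.8 ± 36.7 CPM in GE and 1705 ± 290.4 CPM in LE (log2 difference -2.89 ± 0.24 (SE), adjusted p = 0.000277). GE and LE libraries did not overlap for any of the 3 genes, but they share 7.46% to 14.8% of their 50-base windows with one another, so that the share of each is uncertain.

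MAL, a proteolipid of apical sorting, averaged 34.5 ± 26.2 CPM in GE and 283 ± 157 CPM in LE (log2 difference -3.33 ± 0.39 (SE), adjusted p = 0.000645), and MISP, an actin-bundling protein of microvilli and the spindle, averaged 10.2 ± 4.49 CPM in GE and 78.0 ± 19.7 CPM in LE (log2 difference -2.99 ± 0.27). LAMB3, the beta chain of the epithelial laminin 332 (chr9:133298009-133351162), measured 61.0, 16.4, 28.2 and 7.05 CPM in the GE and 246, 194, 266 and 99.8 CPM in the LE (log2 difference -3.12 ± 0.31 (SE), adjusted p = 0.000364). SERPINB7, an intracellular serpin (chr1:157953872-157999242), had 69.9, 17.6, 30.5 and 7.40 CPM in the GE and 415, 135, 173 and 173 CPM in the LE (log2 difference -3.06 ± 0.33 (SE), adjusted p = 0.000464). In both genes every LE library exceeded every GE library and the highest GE value was that of gilt 01. GE of gilt 01 was the highest GE library for 10 of the 15 leading LE genes and GE of gilt 14 the lowest for 11.

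SLC6A15, a carrier of neutral amino acids, averaged 5.46 ± 2.76 CPM in GE and 48.2 ± 20.1 CPM in LE (log2 difference -3.15 ± 0.26), and ATP10B, a phospholipid flippase, 13.6 ± 6.02 CPM in GE and 111 ± 43.3 CPM in LE (log2 difference -3.02 ± 0.28). TRPV5, an epithelial calcium channel, averaged 38.8 ± 29.3 CPM in GE and 349 ± 315 CPM in LE (log2 difference -3.04 ± 0.23 (SE), adjusted p = 0.000277). Its libraries overlapped, with GE of gilts 01 and 03 above LE of gilt 14. TMEM158, TLL2 (a metalloprotease of the tolloid family), LOC100739508 (annotated as a glutathione S-transferase P-like gene) and ITPRIPL1 had log2 differences of -3.16 ± 0.34, -3.02 ± 0.34, -3.17 ± 0.29 and -2.94 ± 0.29.

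**Figure D3:**
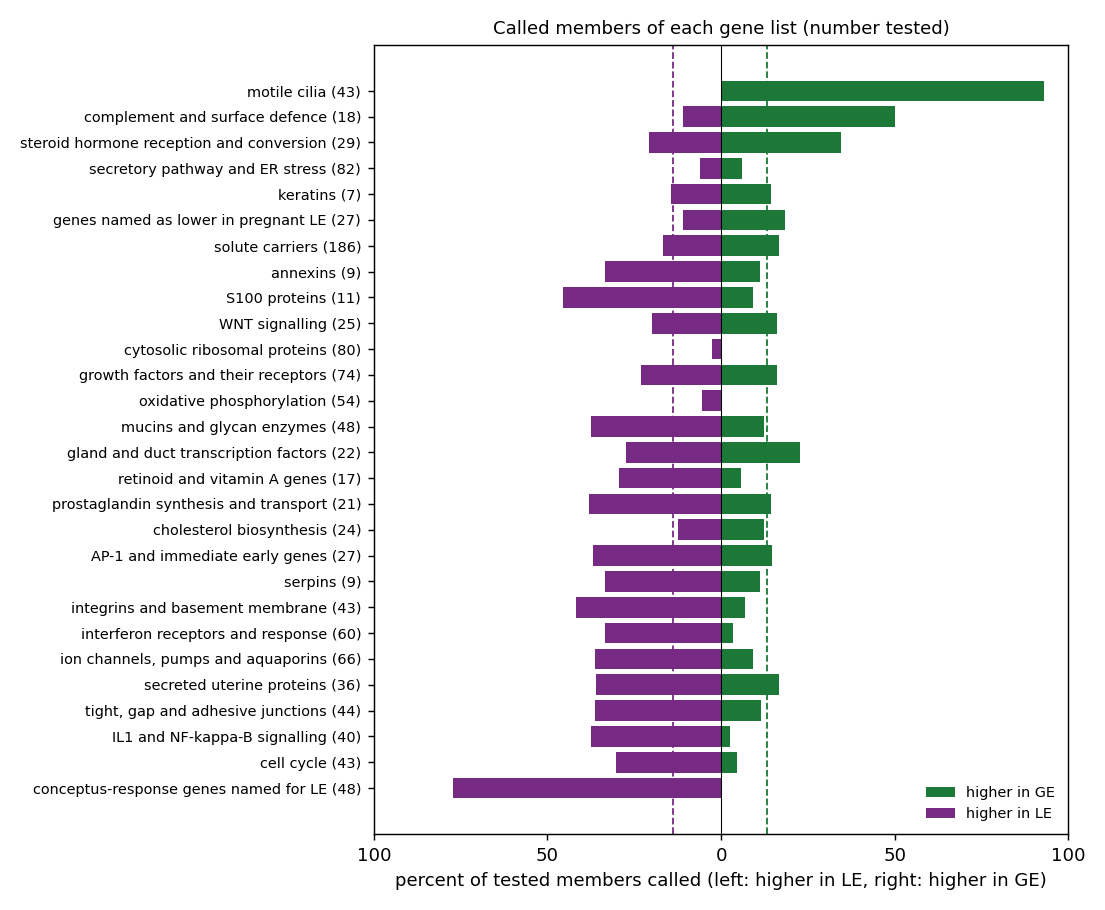
Share of tested members called higher in GE or in LE (x axis, percent) for each gene list (y axis), bars to the right for GE and to the left for LE, with dashed lines at the shares over all 10851 genes (13.3% and 13.7%). Motile cilia lie on the GE side (40 of 43), and the conceptus-response, ion channel and integrin lists on the LE side.

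Secreted uterine proteins were called in both directions, more often in LE. Of 36 tested, 6 were higher in GE (16.7%) and 13 in LE (36.1%), against 13.3% and 13.7% of all genes. The GE-higher share is thus near that of all genes. The median log2 difference was -0.47, against 0.01 for all genes, and 3 more members were listed in GE alone. SAL1, a salivary lipocalin that binds small hydrophobic molecules, had 45.5, 477, 379.5 and 1845 CPM in the GE and 9.15, 1.98, 6.68 and 87.9 CPM in the LE (log2 difference 5.15 ± 0.66 (SE), adjusted p = 0.000892). Its libraries overlapped, since LE of gilt 14 exceeded GE of gilt 01. SLPI, an inhibitor of leukocyte elastase, averaged 304 ± 75.4 CPM in GE and 27.5 ± 30.2 CPM in LE (log2 difference 3.94 ± 0.52 (SE), adjusted p = 0.00101), and ENPP3, an ectonucleotidase, 151 ± 54.2 CPM in GE and 6.22 ± 6.70 CPM in LE (log2 difference 4.76 ± 0.46 (SE), adjusted p = 0.000364). On the LE side stood the membrane mucins MUC1 (209 ± 49.9 CPM in GE and 1041 ± 249 CPM in LE; log2 difference -2.32 ± 0.21) and MUC4 (log2 difference -2.53 ± 0.27). FGF7, the keratinocyte growth factor that acts on epithelium and trophectoderm, measured 623, 217, 749 and 291 CPM in the GE and 2508, 2228, 3780.3 and 2204 CPM in the LE (log2 difference -2.66 ± 0.27 (SE), adjusted p = 0.000388), and all LE libraries lay above all GE libraries. RBP4, the carrier of retinol, did not pass the test (2334 ± 961 CPM in GE and 1984 ± 613 CPM in LE; log2 difference 0.15 ± 0.23), and neither did the lysosomal proteases CTSB and CTSD (log2 differences -0.43 ± 0.20 and -0.35 ± 0.19).

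A list of 56 conceptus-response genes of LE was taken from the study, and 37 of its 48 tested members were higher in LE and 0 in GE (median log2 difference -1.63); the other 8 were listed in LE alone. The list was drawn up on these same LE libraries and is therefore not independent evidence of its direction. In the cyclic gilts, 4 of the 48 genes were higher in LE and 5 in GE, with a median log2 difference of -0.30. IL1R1, the receptor of interleukin 1, measured 629, 304, 425 and 149.7 CPM in the GE and 2387, 2737, 2243 and 1409 CPM in the LE (log2 difference -2.68 ± 0.27 (SE), adjusted p = 0.000388). IFNAR2, a subunit of the type I interferon receptor, had 39.5, 51.3, 54.3 and 40.2 CPM in the GE and 159, 255, 264 and 171 CPM in the LE (log2 difference -2.18 ± 0.17 (SE), adjusted p = 0.000277). LPAR3, a receptor of lysophosphatidic acid, averaged 95.9 ± 40.9 CPM in GE and 554 ± 147 CPM in LE (log2 difference -2.60 ± 0.24), and ABCC1, an exporter of conjugated lipids, 56.4 ± 26.8 CPM in GE and 333 ± 161 CPM in LE (log2 difference -2.53 ± 0.18). For these 4 genes the LE libraries lay above those of GE without overlap. TRPV6, a calcium channel, averaged 243 ± 153 CPM in GE and 1662 ± 1253 CPM in LE but shares 33.2% of its sequence windows with EPHB6 and TRPV5, which makes its level uncertain. With any single gilt left out the count of LE-higher members was 30 to 35.

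Interleukin 1 and NF-kappa-B signalling also leaned to LE. This list shares members with the conceptus-response list, among them RELB and NFKBIE. The study also names IL1RAP, NFKB1 and NFKBIA as higher in pregnant LE. The list is therefore not separate evidence of this direction. Of 40 tested members 15 were higher in LE (37.5%) and 1, IL33, in GE (2.5%), against 13.7% and 13.3% of all genes. Another 4 each were listed in one table alone. IL18R1, an interleukin 18 receptor subunit, averaged 37.5 ± 18.5 CPM in GE and 214 ± 65.6 CPM in LE (log2 difference -2.60 ± 0.27 (SE), adjusted p = 0.000388). IL1RAP, the co-receptor of IL1R1, had 365, 144, 530.2 and 168 CPM in the GE and 1006, 605, 2312 and 1969.6 CPM in the LE (log2 difference -2.29 ± 0.33 (SE), adjusted p = 0.00154). SOD2, mitochondrial superoxide dismutase, and NFKBIA, the inhibitor of NF-kappa-B, are targets of the pathway, and their log2 differences were -1.84 ± 0.26 and -1.76 ± 0.20. NFKB1 and RELA, which code for subunits of the transcription factor, were not called, with log2 differences of -0.71 ± 0.24 and -0.17 ± 0.19, whereas RELB was listed only in LE (28.9 ± 3.43 CPM). IL33 (log2 difference 1.91 ± 0.45) lost its call without gilt 03, at 1.44 (adjusted p = 0.0536), and without gilt 05, at 1.76 (adjusted p = 0.0708), and the LE-higher count fell to 9 without gilt 05.

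Interferon receptors and response genes were higher in LE for 20 (33.3%) and in GE for 2 (3.33%) of 60 members, against 13.7% and 13.3% of all genes. The LE-higher count fell to 14 without gilt 05 and to 13 without the gilt as block. IFNAR1, a further subunit of the type I interferon receptor, measured 222, 233, 305 and 185 CPM in the GE and 614, 1047, 1220.4 and 800.1 CPM in the LE (log2 difference -1.94 ± 0.20 (SE), adjusted p = 0.000386), and SLA-3, a class I major histocompatibility gene, averaged 150.2 ± 10.7 CPM in GE and 609 ± 91.5 CPM in LE (log2 difference -2.01 ± 0.18 (SE), adjusted p = 0.000277). IFNGR2, a receptor chain of interferon gamma, had a log2 difference of -1.87 ± 0.30, and IL10RB, a receptor chain of interleukin 10 and lambda interferons, of -1.80 ± 0.21. RSAD2 and MX1, which encode antiviral effectors, were not called, at log2 differences of -0.06 ± 0.58 and 0.04 ± 0.31. The GE-higher members were IFIT2 and EIF2AK2 (log2 differences 1.44 ± 0.44 and 0.77 ± 0.18). Both lost the call without gilt 03, at 1.35 (adjusted p = 0.149) and 0.64 (adjusted p = 0.0644), and IFIT2 also without gilt 05 or gilt 14, at 1.08 (adjusted p = 0.145) and 1.51 (adjusted p = 0.107). Of the 5 leukocyte markers tested, 2 were higher in LE and 0 in GE, and their part in the result for the antigen-presentation genes was not tested.

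Of 21 tested prostaglandin genes 3 were higher in GE (14.3%, near the 13.3% of all genes) and 8 in LE (38.1%, against 13.7%). AKR1B1, which has prostaglandin F synthase activity (chr18:14593516-14752316), had 2063, 1350.5, 1102 and 162 CPM in the GE and 7709, 12906, 7784 and 1596 CPM in the LE (log2 difference -2.82 ± 0.30 (SE), adjusted p = 0.000426). Each LE library exceeded the GE library of its own gilt, although GE of gilt 01 lay above LE of gilt 14. PTGS2, the inducible cyclooxygenase, averaged 45.0 ± 36.2 CPM in GE and 260.0 ± 245 CPM in LE (log2 difference -2.27 ± 0.39 (SE), adjusted p = 0.00353), and PTGES, the prostaglandin E synthase, 4.37 ± 3.11 CPM in GE and 19.2 ± 3.15 CPM in LE (log2 difference -2.30 ± 0.47 (SE), adjusted p = 0.00770). The GE-higher members were the receptor PTGER2 described above, PTGR2, a prostaglandin reductase, and ANXA2, a membrane-binding annexin (log2 differences 0.66 ± 0.20 and 0.98 ± 0.28 for the last pair). Only PTGER2 kept its call without gilt 03 or without gilt 05, so that the count fell to 1 in either case, and PTGR2 also lost its call without gilt 14, at 0.67 (adjusted p = 0.0728). SLCO2A1, the prostaglandin transporter, and HPGD, the degrading dehydrogenase, did not pass the test, at log2 differences of 0.41 ± 0.26 and -0.44 ± 0.59.

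Genes of steroid reception and conversion were higher in GE for 10 (34.5%) and in LE for 6 (20.7%) of 29 members, against 13.3% and 13.7% of all genes. SULT2A1, a sulfotransferase of hydroxysteroids, had 988, 558, 1081 and 253 CPM in the GE and 118, 6.95, 8.14 and 3.35 CPM in the LE (log2 difference 5.59 ± 0.66 (SE), adjusted p = 0.000645). SULT1E1, the estrogen sulfotransferase, showed the opposite direction with 144 ± 94.3 CPM in GE and 817 ± 576 CPM in LE (log2 difference -2.42 ± 0.29 (SE), adjusted p = 0.000691), and SRD5A1, the steroid 5 alpha-reductase, had a log2 difference of -2.30 ± 0.29. ESR1, the estrogen receptor, averaged 312 ± 142 CPM in GE and 145 ± 59.0 CPM in LE (log2 difference 1.09 ± 0.19 (SE), adjusted p = 0.00367), and GREB1, an estrogen-responsive gene, 103 ± 69.0 CPM in GE and 16.8 ± 14.9 CPM in LE (log2 difference 2.81 ± 0.50 (SE), adjusted p = 0.00414). PGRMC1, a membrane-associated progesterone-binding protein, had a log2 difference of 1.41 ± 0.18, whereas the nuclear progesterone receptor PGR was not called (81.9 ± 60.4 CPM in GE and 51.3 ± 16.6 CPM in LE; log2 difference 0.52 ± 0.26).

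Transcription factors of the gland and duct list were higher in GE for 5 and in LE for 6 of 22 members. These shares are 22.7% and 27.3%, against 13.3% and 13.7% of all genes. FOXA2, the forkhead factor required for gland formation, was listed in GE only (45.0, 69.8, 56.6 and 108 CPM in gilts 01, 03, 05 and 14). MSX1, a homeobox factor, averaged 90.6 ± 59.9 CPM in GE and 19.3 ± 15.6 CPM in LE (log2 difference 2.27 ± 0.34 (SE), adjusted p = 0.00190), and PAX2 102 ± 46.4 CPM in GE and 34.0 ± 29.9 CPM in LE (log2 difference 1.77 ± 0.26 (SE), adjusted p = 0.00176). KLF5 and TFCP2L1 were higher in LE, with log2 differences of -1.35 ± 0.20 and -1.25 ± 0.24. Without gilt 05, 3 members remained on each side. The WNT list contributed 4 GE-higher and 5 LE-higher of 25 (16% and 20%), near the shares of all genes. LEF1, a transcription factor of the pathway, averaged 949.5 ± 382 CPM in GE and 104 ± 30.6 CPM in LE (log2 difference 3.14 ± 0.19 (SE), adjusted p = 0.000223), and RNF43, which removes frizzled receptors from the membrane, had a log2 difference of 3.90 ± 0.45 (adjusted p = 0.000550). WNT5A was higher in LE (log2 difference -1.23 ± 0.22). Among growth factors and receptors 12 of 74 were higher in GE (16.2%, near the share of all genes) and 17 in LE (23%). EGFR and IL6ST, receptors of the EGF family and of interleukin 6 type cytokines, were higher in GE (1.67 ± 0.18 and 1.64 ± 0.30 on the log2 scale). The ligands EGF and VEGFA were higher in LE (-2.04 ± 0.35 and -1.70 ± 0.19 on the log2 scale). Without gilt 05 the GE-higher count of growth factors and receptors fell to 4 and without gilt 03 to 5, and the LE-higher count of the WNT list fell to 1 and 3.

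The GE-higher share was largest for motile cilia among the functional gene lists. Of 43 tested members 40 were higher in GE and 0 in LE, with a median log2 difference of 2.45, and 38 had 4 GE libraries above 4 LE libraries (11.4% of all genes did). A further 57 were listed in GE alone, at means of 6.07 to 50.9 CPM, and 0 in LE alone. Of these 57 genes, 30 were also listed in S. They have no LE value to compare and do not add to the tested direction. HYDIN, a protein of the central pair of the axoneme, had 275, 381, 211 and 311 CPM in the GE and 19.4, 1.49, 10.8 and 53.9 CPM in the LE (log2 difference 4.18 ± 0.63 (SE), adjusted p = 0.00193). DNAH5, a heavy chain of outer arm dynein, averaged 198 ± 25.4 CPM in GE and 17.0 ± 17.6 CPM in LE (log2 difference 3.89 ± 0.65 (SE), adjusted p = 0.00306), and DNAH11 and DNAH12 had log2 differences of 3.24 ± 0.29 and 3.43 ± 0.34. FOXJ1, the master regulator of ciliogenesis, was listed in GE and S but not in LE, with 63.5, 64.0, 31.9 and 28.5 CPM in the GE. PROM1, KIF9 and CFAP69 were not called, at log2 differences of 0.43 ± 0.56, 0.71 ± 0.36 and -0.45 ± 0.26. Mean stromal levels were above GE for 3 and above LE for 41 of the 43 genes (5 and 41 without gilt 05). Of the 12 ciliated-cell markers 2 were listed in both epithelia, and these summed to 378 to 577 CPM in GE and 1.49 to 95.5 CPM in LE. The other 8 listed markers were in the GE table alone. In the cyclic gilts 24 of the 43 genes were higher in GE and all 43 had a positive difference (median 1.61). The count of calls was 39 to 40 with any single pregnant gilt left out.

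**Figure D4:**
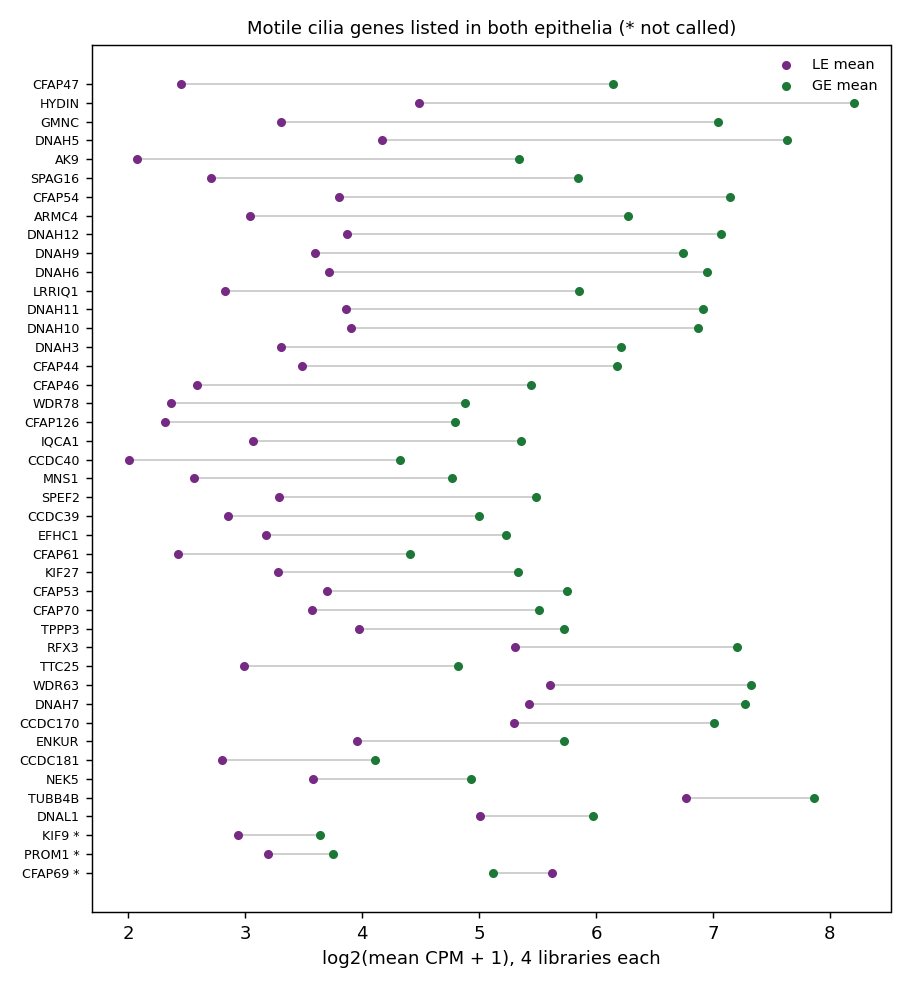
Mean level of the 43 tested motile cilia genes (x axis, log2 of mean CPM + 1, 4 libraries each) in GE (green) and LE (purple) of pregnant gilts, sorted by their log2 difference. The GE mean lies to the right of the LE mean for every gene except CFAP69, and an asterisk marks KIF9, PROM1 and CFAP69, which were not called.

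Solute carriers were higher in GE for 31 and in LE for 31 of 186 members (16.7% each), near the 13.3% and 13.7% of all genes. The GE-higher count fell to 17 without gilt 05. SLC15A2, which encodes the peptide transporter PepT2, averaged 96.3 ± 23.6 CPM in GE and 3.03 ± 3.55 CPM in LE (log2 difference 5.28 ± 0.54 (SE), adjusted p = 0.000388), and SLC15A1, which encodes PepT1, was listed in LE only, so that no difference could be tested, with 125, 229, 45.9 and 4.87 CPM in gilts 01, 03, 05 and 14. In LE of gilt 14 SLC15A1 was near the floor. SLC35F3, a member of the SLC35 carrier family, averaged 33.9 ± 21.8 CPM in GE and 0.742 ± 0.617 CPM in LE (log2 difference 5.30 ± 0.42 (SE), adjusted p = 0.000277). The LE mean of SLC35F3 lay under the level of 3 counts of every LE library, so the size of its difference is uncertain. SLC7A9, a subunit of the cystine and basic amino acid carrier, averaged 31.9 ± 24.6 CPM in GE and 210.4 ± 143 CPM in LE (log2 difference -2.74 ± 0.25 (SE), adjusted p = 0.000316), and SLC19A3, a thiamine transporter, had a log2 difference of -2.83 ± 0.26. SLC27A4, a fatty acid transport protein, had a log2 difference of -2.46 ± 0.20. Ion channels, pumps and aquaporins leaned to LE, with 6 higher in GE (9.09%) and 24 in LE (36.4%) of 66. Their LE-higher count fell to 16 without gilt 05 and to 15 without the gilt as block. CFTR, the chloride channel, averaged 106 ± 64.2 CPM in GE and 12.0 ± 13.9 CPM in LE (log2 difference 3.35 ± 0.35 (SE), adjusted p = 0.000404). TRPM3, a cation channel, averaged 82.4 ± 44.3 CPM in GE and 9.51 ± 11.2 CPM in LE (log2 difference 3.30 ± 0.38). SCNN1B, a subunit of the epithelial sodium channel, had 51.0, 18.8, 31.3 and 29.2 CPM in the GE and 193, 214, 227 and 233 CPM in the LE (log2 difference -2.82 ± 0.27 (SE), adjusted p = 0.000335), and TRPM6, a magnesium channel, a log2 difference of -2.49 ± 0.21.

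Of 17 retinoid genes 5 were higher in LE (29.4%) and 1, the ALDH1A1 described above, in GE (5.88%), against 13.7% and 13.3% of all genes. The LE-higher count fell to 2 without gilt 03 or gilt 05. STRA6, the receptor for retinol-binding protein, averaged 25.1 ± 15.7 CPM in GE and 74.6 ± 26.6 CPM in LE (log2 difference -1.71 ± 0.23), and RARG, a retinoic acid receptor, 10.9 ± 8.41 CPM in GE and 41.4 ± 18.1 CPM in LE (log2 difference -2.07 ± 0.26). Mucins and glycan enzymes were higher in GE for 6 (12.5%, near the 13.3% of all genes) and in LE for 18 (37.5%) of 48 members. The LE-higher count fell to 11 without gilt 05. GALNT4, which starts mucin-type glycans, averaged 324 ± 201 CPM in GE and 24.7 ± 13.4 CPM in LE (log2 difference 3.74 ± 0.41 (SE), adjusted p = 0.000490), and GCNT1, which branches them, 84.6 ± 26.9 CPM in GE and 514 ± 80.8 CPM in LE (log2 difference -2.65 ± 0.26 (SE), adjusted p = 0.000364). ST6GAL1, a sialyltransferase, had a log2 difference of 4.56 ± 0.38, but 30.9% of its windows occur in the gene LOC100519216 on the opposite strand and its value is uncertain. Of 18 complement and surface defence genes 9 were higher in GE (5 without gilt 05) and 2 in LE. C4A and the complement shield CD55 had log2 differences of 2.37 ± 0.22 and 1.54 ± 0.29. PGLYRP2, which cleaves peptidoglycan, had -2.72 ± 0.23 in the opposite direction.

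Junction genes were higher in LE for 16 (9 without gilt 05) and in GE for 5 (3 without gilt 03 or gilt 05) of 44 members. The LE-higher share was 36.4%, against 13.7% of all genes, and the GE-higher share 11.4%, near the 13.3% of all genes. GJA1, connexin 43, averaged 104 ± 66.7 CPM in GE and 406 ± 51.7 CPM in LE (log2 difference -2.16 ± 0.30 (SE), adjusted p = 0.00135), and the claudins CLDN4 and CLDN3 had log2 differences of -1.57 ± 0.22 and -1.04 ± 0.18. CLDN1 was listed in LE only (65.2 ± 19.4 CPM). CDH13, a cadherin anchored to the membrane without a cytoplasmic part, averaged 1218 ± 604 CPM in GE and 94.0 ± 36.5 CPM in LE (log2 difference 3.59 ± 0.35 (SE), adjusted p = 0.000364), and the desmosomal DSC2 had a log2 difference of 3.29 ± 0.50. Of the keratins, KRT19 was higher in GE (174 ± 124 CPM in GE and 32.5 ± 23.7 CPM in LE; log2 difference 2.50 ± 0.28) and KRT7 was higher in LE (log2 difference -1.68 ± 0.28), while KRT8 and KRT18 were not called (-0.12 ± 0.20 and 0.86 ± 0.32). Among 11 tested S100 genes, which code for small calcium-binding proteins, 5 were higher in LE, 1 was higher in GE and 5 were not called. The median log2 difference of these genes was -0.08, against 0.01 for all genes, so the family as a whole did not lean to LE. S100A8, S100A9, S100A12 and S100A2 were higher in LE, with log2 differences of -2.89 ± 0.28, -2.87 ± 0.30, -2.85 ± 0.28 and -2.64 ± 0.30. The study names S100A8, S100A9 and S100A12 as highly upregulated in pregnant animals. ANXA8, a calcium-dependent membrane-binding protein, averaged 77.3 ± 32.8 CPM in GE and 510.4 ± 172 CPM in LE (log2 difference -2.76 ± 0.27 (SE), adjusted p = 0.000364). It belongs to the annexins, of which 9 were tested, with 3 higher in LE, 1 higher in GE and 5 not called.

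Integrins and basement membrane genes were higher in LE for 18 (41.9%) and in GE for 3 (6.98%) of 43 members, against 13.7% and 13.3% of all genes. The LE-higher count fell to 8 without gilt 05 and to 3 without the gilt as block, and the GE-higher count to 0 without gilt 03 and 1 without gilt 05. ITGA3, a laminin receptor subunit, averaged 93.4 ± 8.73 CPM in GE and 233 ± 55.2 CPM in LE (log2 difference -1.30 ± 0.20 (SE), adjusted p = 0.00215). COL15A1, a collagen of vascular basement membranes, and ITGA5, the fibronectin receptor subunit, had log2 differences of -1.61 ± 0.26 and -1.45 ± 0.22, and their libraries overlapped. Of the blood endothelium markers 9 of 12 (5 without gilt 05, 0 without the block) were higher in LE and 0 in GE, among them KDR (-2.25 ± 0.32) and EMCN (-1.84 ± 0.26). The summed level of these markers is given above, and their part in the LE-higher vascular and matrix genes was not tested.

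Cell cycle genes were higher in LE for 13 (30.2%) and in GE for 2 (4.65%) of 43 members, against 13.7% and 13.3% of all genes. The LE-higher count fell to 7 without gilt 05 and to 1 without the block. MKI67, a marker of proliferation, averaged 44.0 ± 38.3 CPM in GE and 102 ± 73.2 CPM in LE (log2 difference -1.35 ± 0.20), and PCNA, the replication clamp, 31.8 ± 9.89 CPM in GE and 72.2 ± 20.6 CPM in LE (log2 difference -1.18 ± 0.24); the libraries of MKI67 overlapped. Among AP-1 and immediate early genes 10 of 27 were higher in LE (37%, against 13.7% of all genes) and 4 in GE (14.8%, near the 13.3% of all genes). FOSL2, an AP-1 subunit, averaged 371 ± 138 CPM in GE and 1046 ± 278 CPM in LE (log2 difference -1.52 ± 0.21 (SE), adjusted p = 0.00131), and MAFF 15.5 ± 5.71 CPM in GE and 79.2 ± 25.7 CPM in LE (log2 difference -2.37 ± 0.21 (SE), adjusted p = 0.000277). CTGF, a matricellular growth factor, was higher in GE with 1415, 3425, 3621 and 1016 CPM in the GE and 217, 157, 77.3 and 450.3 CPM in the LE (log2 difference 3.49 ± 0.69 (SE), adjusted p = 0.00694). The feedback phosphatases of MAP kinases took opposite sides, DUSP6 at 3.39 ± 0.47 and DUSP4 at -2.47 ± 0.24 on the log2 scale.

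The ribosomal, oxidative phosphorylation and secretory pathway lists showed few calls. Of the cytosolic ribosomal proteins 0 of 80 were higher in GE and 2 in LE (10 without gilt 14, 1 without gilt 01, 0 without gilt 03 or gilt 05), and of the oxidative phosphorylation subunits 0 of 54 were higher in GE and 3 in LE (1 without gilt 01 or gilt 03, 5 without gilt 14). In the secretory pathway and ER stress list 5 of 82 were higher in each epithelium (6.1%), below the shares over all genes, and without gilt 05 these counts were 0 in GE and 2 in LE. SEC63, a translocon component, and ATF4, a transcription factor of the stress response, were higher in LE (-1.13 ± 0.22 and -1.01 ± 0.20 on the log2 scale). Cholesterol biosynthesis gave 3 in each direction of 24 (12.5% each), close to the 13.3% and 13.7% of all genes. These counts fell to 1 in GE without gilt 05 and to 1 in LE without gilt 03. FDPS, farnesyl diphosphate synthase, had 196 ± 69.1 CPM in GE and 1003 ± 214 CPM in LE (log2 difference -2.39 ± 0.27 (SE), adjusted p = 0.000514).

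The GE to LE difference was then compared between pregnant and cyclic gilts, which asks whether the contrast is the same in both states. In the cyclic gilts 439 genes (4.05%) were higher in GE and 374 (3.45%) in LE, in a fit over all 16 libraries. That fit called 1393 and 1260 genes in the pregnant gilts. The shares that follow use the 1446 and 1488 pregnant calls of the main fit, so they set calls of unlike fits side by side. Of the GE-higher genes 320 were called in both states, which is 22.1% of the pregnant and 72.9% of the cyclic calls, and of the LE-higher genes 237 were called in both (15.9% and 63.4%). The difference itself was tested by an interaction term over all 16 libraries, and 153 genes (1.41%) passed, 68 shifted towards GE and 85 towards LE in pregnancy. The count was unstable, at 0 without gilt 04 and at 12, 15, 29 and 47 without gilts 03, 05, 06 and 01.

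IFNAR2 was among the genes of smallest p, with a pregnant minus cyclic change of -1.98 ± 0.21 on the log2 scale (adjusted p = 0.0102) and cyclic values of 25.8, 26.7, 20.2 and 23.6 CPM in the GE and 24.2, 36.4, 22.9 and 29.8 CPM in the LE of gilts 02, 04, 06 and 13. SLC5A1, the sodium-glucose transporter SGLT1, had 231, 199, 377 and 91.9 CPM in the GE and 922, 1588, 1125 and 554 CPM in the LE in pregnant gilts and 125, 261, 351 and 493 CPM in the GE and 32.8, 84.3, 133 and 40.7 CPM in the LE in cyclic gilts (interaction -4.43 ± 0.52, adjusted p = 0.0109). PCK2, mitochondrial phosphoenolpyruvate carboxykinase, changed by -4.58 ± 0.52 (adjusted p = 0.0102), and NUPR1, a stress-induced nuclear protein, by -3.54 ± 0.40 (adjusted p = 0.0102). All 4 were shifted towards LE in pregnant gilts. TNIK, a kinase of the WNT pathway, went the other way, at 3.34 ± 0.36 (adjusted p = 0.0102), with a difference of 3.01 ± 0.26 in pregnant and -0.36 ± 0.24 in cyclic gilts. GAB1, an adaptor of growth factor receptors, HUNK, BCAS3, SPTY2D1 and USP38 had interaction terms of -2.30 ± 0.23, -2.60 ± 0.28, -2.63 ± 0.30, -1.75 ± 0.20 and -1.92 ± 0.23. IFNAR2, SLC5A1, PCK2, NUPR1, TNIK, GAB1, HUNK, BCAS3 and SPTY2D1 were called in 7 of 8 fits that left out a gilt, and USP38 in 5 of 8.

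PTGER2 and SLC24A4 were larger in the pregnant contrast by 4.12 ± 0.68 and 6.67 ± 1.17 (adjusted p = 0.0250 and 0.0329), and each was called in 3 of the 8 fits that left out a gilt. MEP1B and ACP5 missed the threshold, at 4.24 ± 1.45 and 4.17 ± 0.86 (adjusted p = 0.198 and 0.0507). The cyclic LE values of MEP1B were 151, 44.3, 272 and 106 CPM in gilts 02, 04, 06 and 13, above every pregnant LE library, and cyclic GE was in the same range as pregnant GE.

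**Figure D5:**
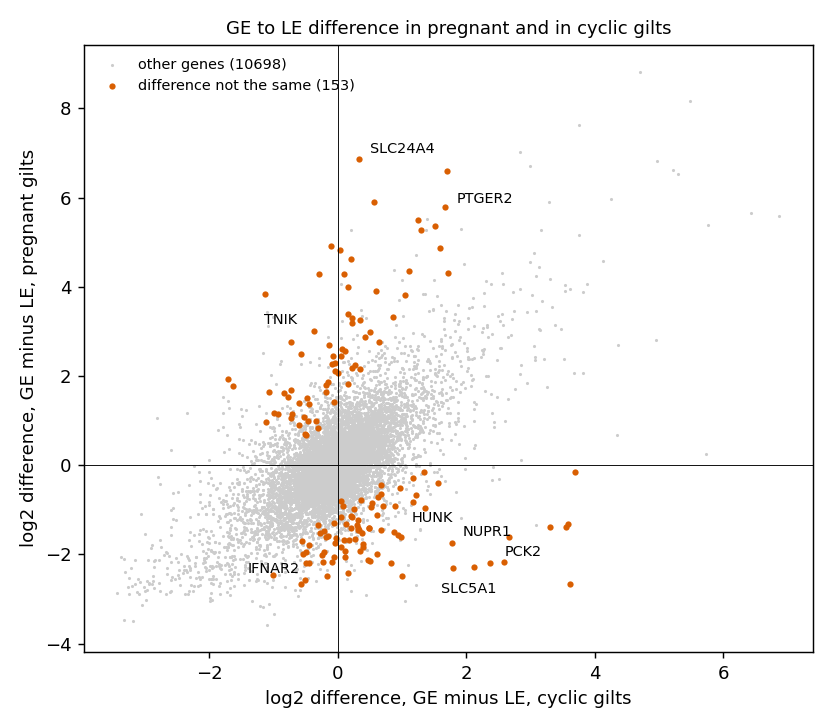
Log2 difference between GE and LE in cyclic gilts (x axis) against that in pregnant gilts (y axis) for the 10851 genes; coloured points passed the interaction test. SLC5A1, PCK2 and NUPR1 lie on the LE side in pregnancy, and TNIK and PTGER2 on the GE side.

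Genes listed in a single epithelial table were mostly weak, with a median mean level of 9.26 CPM in the GE table (825 genes) and 8.61 CPM in the LE table (564 genes), against 37.6 CPM for genes listed in both. Absence from a table is not a level of 0, since tables were filtered on level. Besides UABP-2, the highest GE-only genes were ADAMTS18, a secreted metalloprotease (376 ± 91.2 CPM), RFX6, a transcription factor (264 ± 116 CPM), and CCL28, a mucosal chemokine (44.0, 83.5, 36.8 and 524 CPM in gilts 01, 03, 05 and 14). Its highest value came from gilt 14. LIF, a cytokine of implantation, DMBT1, a mucosal glycoprotein, and MUC6, a gel-forming mucin, were listed in GE at 44.8 ± 18.4 CPM, 85.2 ± 54.5 CPM and 74.9 ± 121 CPM, and these 3 were chosen after their values were seen. The highest LE-only genes after SLC15A1 were SLC5A4, a member of the sodium-glucose cotransporter family (93.8, 203, 72.4 and 5.48 CPM), and CLDN1. SLC5A4 and SLC15A1 were both low in LE of gilt 14. TRPV3, a heat-sensitive calcium channel, was listed in LE at 52.8 ± 44.9 CPM. STEAP1, a metalloreductase, had 46.0 ± 23.5 CPM.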

How the data were processed

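The 22 LCM libraries were prepared with the Ovation SoLo kit from RNA isolated with PicoPure. Reads were aligned by the authors to Sscrofa11.1 (Hisat2), PCR duplicates were taken out by means of random bases in the adapters, and a CPM cut-off was applied to genes. The values deposited are raw whole-number read counts per NCBI gene, with 1 file for GE, 1 for LE and 1 for S. How reads were counted, whether strand was used and where the cut-off lay is not given in the sources used here. Without strand, reads of overlapping genes cannot be told apart. Every listed gene reached 6.91 CPM in 3 GE libraries or 7.07 CPM in 3 LE libraries, so that an unlisted gene is not a gene at 0.

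GE and LE counts of pregnant gilts were joined by gene ID and fitted in edgeR 4.0.16 (R 4.3.3; TMM, estimateDisp, quasi-likelihood F test) with the gilt as a block, and p-values were adjusted over the 10851 genes (Benjamini-Hochberg, threshold 0.05). This block is the main design because both epithelia came from the same animals, and deviations of GE and LE from their group means were correlated at 0.483, 0.276, 0.355 and 0.379 within gilts 01, 03, 05 and 14. The interaction of epithelium and pregnancy was fitted on all 16 GE and LE libraries with the same block. Differences and calls given for cyclic gilts come from this fit, whereas those of pregnant gilts come from the main fit. SE is the absolute log2 difference divided by the square root of F, and values of single libraries are CPM on TMM-scaled totals, in the stroma on a scale shared by all cell types. The marker sums of S are an exception and are CPM on library totals without TMM. No gene set or resampling test was used. The p-values of the main fit set the GE to LE difference against its spread between the 4 pregnant gilts. Those of the interaction rest on the pregnant and the cyclic gilts together.

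Named genes follow a fixed rule: the 15 leading called genes in each direction (mean of at least 10 CPM in the higher epithelium, all 4 gilts alike), up to 4 called members of each list in each direction by smallest p, the 10 highest genes of a single table, and the 10 smallest p-values of the interaction. 1 leading LE gene and some of the single-table genes are not reported here. Members not called are given with values. IL1RAP, IFNGR2, IL10RB, PTGS2, PTGES, SLC39A2, NMU, MMP8 and the metallothioneins other than LOC102166944, and the single-table genes RELB, FOXA2, FOXJ1, LIF, DMBT1 and MUC6, lie outside the rule and were chosen after their values were seen. The comparison and the gene lists were chosen with earlier results of these data known. All 12401 gene IDs were found in the annotation of Sscrofa11.1, which gave symbols, coordinates and promoter windows. For named genes, windows of 50 bases that also occur in other genes were counted.

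Alternatives were RLE size factors, library size alone or whole-table totals, filterByExpr or at least 10 counts in each library, no block or a random block (voom, limma 3.58.1), the likelihood ratio test, DESeq2 1.42.0, all 16 libraries, thinning to the smallest library, a threshold of 0.01 and leaving out each gilt. Counts of list members under these settings, stromal levels without gilt 05 and marker sums over genes listed in both epithelia were added after seeing the data. On simulated counts of the 10851 genes, 100 genes were changed by a log2 difference of 1 and 100 by 2. The GE against LE fit recovered 42% and 95% of them, and the interaction fit 1% and 28%. In the data the main fit called 2934 genes, and recovery at an adjusted p depends on how many genes differ. The shares are therefore not the recovery of the fits reported here.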

Additional observations from a re-analysis of the deposited data

Results flagged for a closer look

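In 40 of 337 groups of 4 libraries, the highest or the lowest one stood apart from the other 3 by more than Dixon's 95% limit. The groups examined were the GE or LE libraries of the genes named here and of the marker lists. Chance alone is expected to give about 5% for independent, normally distributed values. The CPM were not transformed and the genes share the same libraries, so the 40 groups cannot be set against that share. GE of gilt 03 was apart on the high side for SLC30A2, at 210.1 CPM. GE of gilt 05 was apart on the high side for PGLYRP2 and SPTY2D1, at 13.2 and 220.2 CPM respectively. GE of gilt 14 was apart on the high side for LOC102166944, LOC100514051, ESR1, EIF2AK2, MX1, RSAD2, CCL28 and MUC6, at 117, 1138, 525, 694, 267, 34.5, 524 and 255 CPM respectively. LE of gilt 05 was apart on the high side for LOC110260804 and LPAR3, at 0.581 and 771 CPM respectively. LE of gilt 05 was also apart on the high side in the sum of red blood cell markers, at 253 CPM. LE of gilt 14 was apart on the high side for FAM84A, LOC100524382, ALDH1A1, MT1A, LOC100514051, SAL1, SLC24A4, DUSP6, LOC100626264, EIF2AK2, HPGD, MX1 and RSAD2, at 77.3, 4.56, 17.6, 6.08, 73.9, 87.9, 38.9, 74.5, 479.8, 394, 219, 129.6 and 31.0 CPM respectively. LE of gilt 14 was apart on the low side for TMEM158, at 41.7 CPM. LE of gilt 01 was apart on the high side for SERPINB7, SULT2A1, ITGA5, COL15A1 and IL33, at 415, 118, 437, 564 and 66.3 CPM respectively. LE of gilt 01 was also apart on the high side in the sum of leukocyte markers and smooth muscle and pericyte markers, at 603 and 5771 CPM. GE of gilt 03 was apart on the low side for NFKBIA and NMU, at 20.6 and 169 CPM respectively. GE of gilt 01 was apart on the high side for RARG and SRD5A1, at 23.5 and 67.5 CPM respectively. GE of gilt 14 was apart on the low side for RBP4, at 894 CPM.

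The difference between GE and LE was not the same in pregnant and cyclic gilts for 28 of the named genes (edgeR quasi-likelihood test of the interaction). In pregnant gilts it was shifted towards GE for TNIK, LOC102166944, MT3, RNF43, PAX2, MT-2B, PTGER2, KRT19, SLC24A4, LOC110260804 and DUSP6, by log2 values of 3.34, 5.33, 4.18, 3.28, 3.38, 4.45, 4.12, 3.04, 6.67, 4.91 and 3.21. In pregnant gilts it was shifted towards LE for GAB1, HUNK, IFNAR2, PCK2, NUPR1, BCAS3, SPTY2D1, SLC5A1, USP38, SLA-3, SULT1E1, SOD2, NFKBIA, IFNAR1, DUSP4, FOSL2 and SLC27A4, by log2 values of -2.30, -2.60, -1.98, -4.58, -3.54, -2.63, -1.75, -4.43, -1.92, -1.79, -2.61, -2.25, -2.17, -1.46, -2.33, -1.27 and -1.48. With a gilt left out, the threshold was passed by SLA-3 in 4, SULT1E1 in 4, SOD2 in 4, MT3 in 4, RNF43 in 4, PAX2 in 4, MT-2B in 3, NFKBIA in 4, IFNAR1 in 4, DUSP4 in 3, PTGER2 in 3, KRT19 in 4, SLC24A4 in 3, LOC110260804 in 2, DUSP6 in 2, FOSL2 in 0 and SLC27A4 in 1 of the 8 fits.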

How the results depend on the processing

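The fit without a replicate block gave 915 GE-higher and 851 LE-higher genes, against 1446 and 1488 with it, and 914 and 850 of them were shared. A threshold of 0.01 left 693 and 781 genes. Leaving out one gilt gave 766 to 1346 GE-higher and 831 to 1427 LE-higher genes, and the lowest values came without gilt 05. The other normalizations, filters and tests stayed within 1.5 times of both counts (1196 to 1779 and 1259 to 1753), and the median difference of all genes was between -0.00458 and 0.0479 under the scalings. The interaction count of 153 genes became 85 with at least 10 counts in each library, 626 with DESeq2, 0 at a threshold of 0.01 and 0 (without gilt 04) to 206 (without gilt 14) with one gilt left out; 1688 genes had an unadjusted p under 0.05 in this test. The cause of these changes was not tested. Low depth limits genes near 3 counts, foremost in LE of gilt 01. Members that were not called could change sign: with a gilt left out the log2 difference ranged from -0.26 to 1.02 for PROM1, from -0.96 to 0.32 for HPGD, from -0.0099 to 0.31 for RBP4, from -0.27 to 0.028 for KRT8, from -0.38 to 0.37 for MX1 and from -0.34 to 0.69 for RSAD2. MX1 was at -0.053 with a random block and -0.13 with thinned counts, and RSAD2 at 0.029 without a block, 0.024 with DESeq2, 0.017 with the likelihood ratio test and 0.26 with thinned counts. Without the block 16 named genes lost their call: ANXA2 (adjusted p = 0.0983), COL15A1 (adjusted p = 0.0701), EIF2AK2 (adjusted p = 0.411), EMCN (adjusted p = 0.0578), ESR1 (adjusted p = 0.0635), HUNK (adjusted p = 0.0790), IFIT2 (adjusted p = 0.288), IL33 (adjusted p = 0.287), ITGA5 (adjusted p = 0.226), KDR (adjusted p = 0.0690), MKI67 (adjusted p = 0.248), PAX2 (adjusted p = 0.0825), PCK2 (adjusted p = 0.0771), PTGR2 (adjusted p = 0.0790), PTGS2 (adjusted p = 0.0896), S100A9 (adjusted p = 0.0957). The LE-higher counts then fell from 18 to 3 for integrins and basement membrane, from 13 to 1 for the cell cycle and from 9 to 0 for blood endothelium markers. IFIT2, EIF2AK2 and IL33 were lost with a gilt left out, as given above with their gilts, as were PTGR2 and ANXA2. Called genes named here kept their direction under every alternative in which they were tested; with at least 10 counts in each library 109 of the 153 named genes were tested.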

Other observations

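Metallothioneins, small proteins that bind zinc and copper, were higher in GE beyond the leading gene LOC102166944. MT1D had 104, 192, 193 and 159 CPM in the GE and 0, 1.49, 6.98 and 18.6 CPM in the LE of gilts 01, 03, 05 and 14 (log2 difference 4.72 ± 0.57 (SE), adjusted p = 0.000705), and MT-2B averaged 232 ± 32.2 CPM in GE and 10.6 ± 10.6 CPM in LE (log2 difference 4.63 ± 0.50 (SE), adjusted p = 0.000464). MT1A had a log2 difference of 5.51 ± 0.62, but 41.5% of its 50-base windows occur in other metallothionein models, so that its share of the reads is uncertain. MT3 averaged 17.2 ± 10.2 CPM in GE and 0.830 ± 1.30 CPM in LE (log2 difference 4.29 ± 0.57). The LE mean of MT3 lay under the level of 3 counts of every LE library, so the size of its difference is uncertain. The zinc importer SLC39A2 stood beside the exporter SLC30A2 on the GE side, with 427, 1128, 396 and 172 CPM in the GE and 5.72, 55.6, 9.59 and 27.1 CPM in the LE (log2 difference 4.43 ± 0.50 (SE), adjusted p = 0.000519), and GE and LE libraries overlapped in none of these 5 genes.

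On the LE side, NMU, a neuropeptide acting on smooth muscle, measured 484, 169, 504 and 486 CPM in the GE and 1560.0, 2186, 3119 and 3376 CPM in the LE of gilts 01, 03, 05 and 14 (log2 difference -2.70 ± 0.32 (SE), adjusted p = 0.000692). MMP8, a collagenase otherwise known from neutrophils, measured 266, 63.7, 484 and 333 CPM in the GE and 1127, 845, 2808 and 3163 CPM in the LE (log2 difference -2.89 ± 0.30 (SE), adjusted p = 0.000396). All LE libraries of both genes lay above all GE libraries. In stroma of gilts 01, 05 and 14 NMU reached 185, 1914 and 468 CPM and MMP8 85.9, 1855 and 604 CPM, and for both genes the highest value came from the library of gilt 05, in which the epithelial markers also summed highest (5026 CPM, against 1600 and 3285 CPM).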
